A study of Rattus norvegicus with 40 samples.

Results

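Arc, Dusp1, Dusp6, Btg2, Ier2, Nptx2, Inhba and Ptgs2 are genes that neurons transcribe within minutes to hours of strong synaptic activity and whose products are effectors rather than classical transcription factors. Each of the 8 genes was taken through the probe sets that carry its symbol and no other in the platform's probe table. In that way 7 of the 8 genes matched 1 probe set each, among 29214 probe sets of which 15310 carried 1 symbol (14506 genes). The probe sets were 10904511 for Arc, 10732652 for Dusp1, 10895144 for Dusp6, 10806685 for Ier2, 10760290 for Nptx2, 10798702 for Inhba and 10764551 for Ptgs2. Btg2 had no such probe set and was not analysed here. The hippocampus of rats killed at postnatal day 55 had been profiled on Affymetrix whole-transcript arrays, 1 array per RNA sample, to ask how the dose, the timing and the sex of the animal bear on the response to developmental lead.

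The 40 arrays fell into 10 groups of 4. Male and female controls ate control chow. Exposed rats of either sex had lead acetate in the chow at 250 ppm or 750 ppm, in 1 of 2 windows. In the perinatal window dams were fed lead from 10 days ahead of breeding up to weaning, after which the pups were on control chow. In the postnatal window lead chow was given from birth to postnatal day 45 and control chow afterwards. The rats therefore ate control chow in the last days before death in every group. The labels gave no strain and did not say whether rats of a group were littermates, so the p-values reflect only the spread between these samples, which may in part be technical.

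Synaptic calcium entry activates the ERK kinases and the transcription factors CREB and SRF, which start immediate early genes without new protein synthesis. Some of their products act at the synapse: Arc drives the endocytosis of AMPA receptors, and Nptx2, a secreted pentraxin, gathers AMPA receptors at excitatory synapses on interneurons. Others shut the signal down again, as the phosphatases Dusp1 and Dusp6 do for MAP kinases. Inhba, the subunit of activin A, and Ptgs2 (cyclooxygenase 2), which makes prostaglandin precursors, carry the signal to neighbouring cells. In homogenised tissue, fewer cells of a type and less RNA per cell cannot be told apart.

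Promoter sequence was matched for 6 of the 7 measured genes, all but Arc, in a RefSeq table of rat promoters on the GRCr8 build, each running from 250 bases before the annotated start to 50 bases after it. The cAMP response element, the binding site of CREB, was searched as TGACGTCA and in its short form TGACG on both strands. The full element, which contains the short form, lay in 2 of the 6 windows, those of Dusp1 and Ier2, against 1.83% of 33469 rat promoters of the same length. The short form lay in 3 of 6, those of Dusp1, Ier2 and Nptx2, against 21.2% of all promoters. The 250 bases upstream of these 3 starts are shown 5′ to 3′ because they hold the matches, at chr10:17184603-17184852 on the plus strand for Dusp1, chr19:40399123-40399372 on the plus strand for Ier2 and chr12:15162046-15162295 on the minus strand for Nptx2. Capitals mark TGACG or its reverse complement, and together the pair spells the full element.
Dusp1: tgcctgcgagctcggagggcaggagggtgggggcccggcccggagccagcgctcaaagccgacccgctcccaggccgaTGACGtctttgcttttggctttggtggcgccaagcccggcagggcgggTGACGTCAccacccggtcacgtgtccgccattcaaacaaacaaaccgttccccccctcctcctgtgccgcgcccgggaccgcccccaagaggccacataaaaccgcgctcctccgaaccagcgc
Ier2: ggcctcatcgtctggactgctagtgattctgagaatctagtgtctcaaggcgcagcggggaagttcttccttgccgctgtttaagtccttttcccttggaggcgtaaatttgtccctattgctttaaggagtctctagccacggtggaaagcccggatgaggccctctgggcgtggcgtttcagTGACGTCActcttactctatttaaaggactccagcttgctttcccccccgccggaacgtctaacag
Nptx2: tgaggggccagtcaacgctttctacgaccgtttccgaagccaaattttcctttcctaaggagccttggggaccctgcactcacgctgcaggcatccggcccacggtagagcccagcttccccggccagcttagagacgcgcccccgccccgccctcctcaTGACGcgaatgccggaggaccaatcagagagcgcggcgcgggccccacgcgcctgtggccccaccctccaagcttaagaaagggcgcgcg
The full element spanned bases 124 to 117 upstream of the Dusp1 start, with a further short form at 172 to 168, and bases 66 to 59 upstream of the Ier2 start. The short form of Nptx2 spanned bases 90 to 86. Of the other motifs, the AP-1 site TGANTCA and the CArG box, which SRF binds, were in 0 of 6 windows (7.33% and 1.64% of all promoters), and TATAAA was in that of Inhba alone (14.2%). A match is a description of these letters, and a window without one says nothing of the factor.

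Most markers of hippocampal neurons were bright on the arrays. Prox1 of dentate granule cells and Wfs1, Fibcd1 and Neurod6 of pyramidal cells had mean log2 signals of 9.82, 11.50, 9.42 and 11.66. These stood at percentiles 86.1, 97.2, 81.7 and 97.7 of all probe sets. Tdo2 (3.68), Iyd (5.33) and Spink8 (5.21) of the same lists were dim. Of the thalamic or striatal markers, Ppp1r1b was the brightest at 9.30 (percentile 80.2). The median signal of an array was 6.96 to 7.06, pairs of arrays had r = 0.985 to 0.997, and the SD of a typical probe set within a group was 0.129. The X-linked Eif2s3 read 11.15 to 11.42 in exposed males and 11.62 to 11.77 in exposed females, yet 11.69 on the array labelled male control replicate 4 and 11.28 and 11.30 on those labelled female control replicates 1 and 3. The labels were kept, and the differences averaged over exposures are also given without these 3 control arrays. A further 3 arrays, male perinatal 250 ppm replicates 1 and 3 and male perinatal 750 ppm replicate 1, had a slightly flattened signal range. They were taken as the 3 arrays of lowest slope against the mean of all arrays. Their slopes minus 1 were -0.0191, -0.0314 and -0.0325, and the next lowest was -0.0132. The number that opens each title fell in 1 of 3 ranges. The controls of both sexes shared the lowest range with the perinatal 750 ppm females, the perinatal 750 ppm males had the highest numbers, and the other 6 groups lay between. Every other exposed group was therefore in a different range from its controls, and there exposure and number range cannot be told apart.

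Arc, whose mRNA travels into dendrites and whose protein removes AMPA receptors from synapses, fell in exposed males and was the only one of the 7 genes to pass the test in either sex averaged over the 4 exposures. Its log2 signal in male controls was 10.78, 10.67, 10.56 and 10.67. Over the 16 exposed males it ran from 9.91 to 10.46 with a median of 10.17. All 16 exposed arrays lay below all 4 controls. The exposed male groups also lay in other ranges of title numbers than the male controls. Exposure and number range cannot be told apart here. The mean of the 4 exposed groups was lower by a log2 difference of -0.51 (SE 0.10), a fold of 0.703, with a limma adjusted p = 0.0404 over all probe sets. The call was a narrow one: without any 1 of the 4 male controls the adjusted p lay above 0.05 (0.175, 0.12, 0.0817 and 0.126 for replicates 1 to 4), and without the 3 control arrays against their sex label it was 0.0604 at the same difference.

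By exposure, the Arc signals of males given 250 ppm perinatally were 10.25, 10.09, 10.25 and 10.21. Those given 750 ppm perinatally read 10.02, 10.31, 10.14 and 9.91. None of these 8 arrays reached the lowest control. Postnatal 250 ppm gave 9.98, 10.31, 9.95 and 10.35, and postnatal 750 ppm gave 10.26, 10.09, 10.06 and 10.46. Both postnatal groups again lay wholly below the controls. Each of the 4 differences had an SE of 0.13 and none passed: they were -0.47, -0.58, -0.53 and -0.46 in the order given, with limma adjusted p = 0.255, 0.0913, 0.267 and 0.277.

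Dusp1, the nuclear phosphatase that dephosphorylates MAP kinases and is itself induced by them, had the greatest difference of the 7 genes in exposed males and also the greatest spread. Male controls read 10.46, 10.31, 10.25 and 10.08. The 16 exposed males ran from 8.98 to 10.30 with a median of 9.61, and 14 of them lay below the lowest control. The difference was -0.65 (SE 0.18), and the limma adjusted p was 0.253. It was -0.71 (SE 0.19) without the 3 controls against their sex label. The SD of Dusp1 within groups was 0.347, at percentile 97.1 of all probe sets, against 0.193 for Arc (percentile 85.6).

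Within exposures, Dusp1 read 9.87, 9.47, 9.60 and 9.53 at perinatal 250 ppm and 9.23, 9.65, 9.71 and 8.98 at perinatal 750 ppm, both wholly below the controls. The postnatal groups were split. At postnatal 250 ppm 2 arrays read 9.14 and 9.15 and the other two 9.92 and 10.18, and at postnatal 750 ppm the arrays read 10.03, 9.55, 9.63 and 10.30, so both postnatal groups overlapped the controls at their upper end. The differences were -0.66, -0.88, -0.67 and -0.40 (SE 0.23 each) for perinatal 250, perinatal 750, postnatal 250 and postnatal 750 ppm, and none passed (limma adjusted p = 0.448, 0.225, 0.616 and 0.587).

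Dusp6, the cytoplasmic phosphatase specific for ERK, was lower by a smaller amount than Arc or Dusp1. Its SD within groups was 0.13, at percentile 51.4 of all probe sets. Male controls read 9.74, 9.69, 9.71 and 9.62, and the exposed males ran from 9.00 to 9.56 with a median of 9.43. No exposed male reached the lowest control. The difference was -0.28 (SE 0.07) with a limma adjusted p = 0.18. The 4 exposures gave -0.29, -0.31, -0.28 and -0.22 (SE 0.09 each), and in each of them the 4 arrays lay below the 4 controls. The lowest value, 9.00, came from perinatal 750 ppm replicate 1, an array of flattened signal. Without the 3 flattened arrays the averaged difference was -0.24 (SE 0.06), and without the 3 controls against their sex label it was -0.30 (SE 0.08).

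Ier2, a nuclear immediate early protein, was the dimmest of the 7, at percentile 41.7 of mean signal. Male controls read 6.50, 6.78, 6.71 and 6.38 and overlapped the exposed males, which ran from 6.11 to 6.61 with a median of 6.42. The difference was -0.19 (SE 0.08, limma adjusted p = 0.607). Its size rested on the controls: it was -0.12 without male control replicate 2, -0.26 without the 3 controls against their sex label and -0.06 with both control groups as 1 group of 8. It was -0.26 and -0.27 at 250 ppm, perinatal and postnatal, and -0.14 and -0.08 at 750 ppm, and each exposed male group overlapped the controls.

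**Figure D1:**
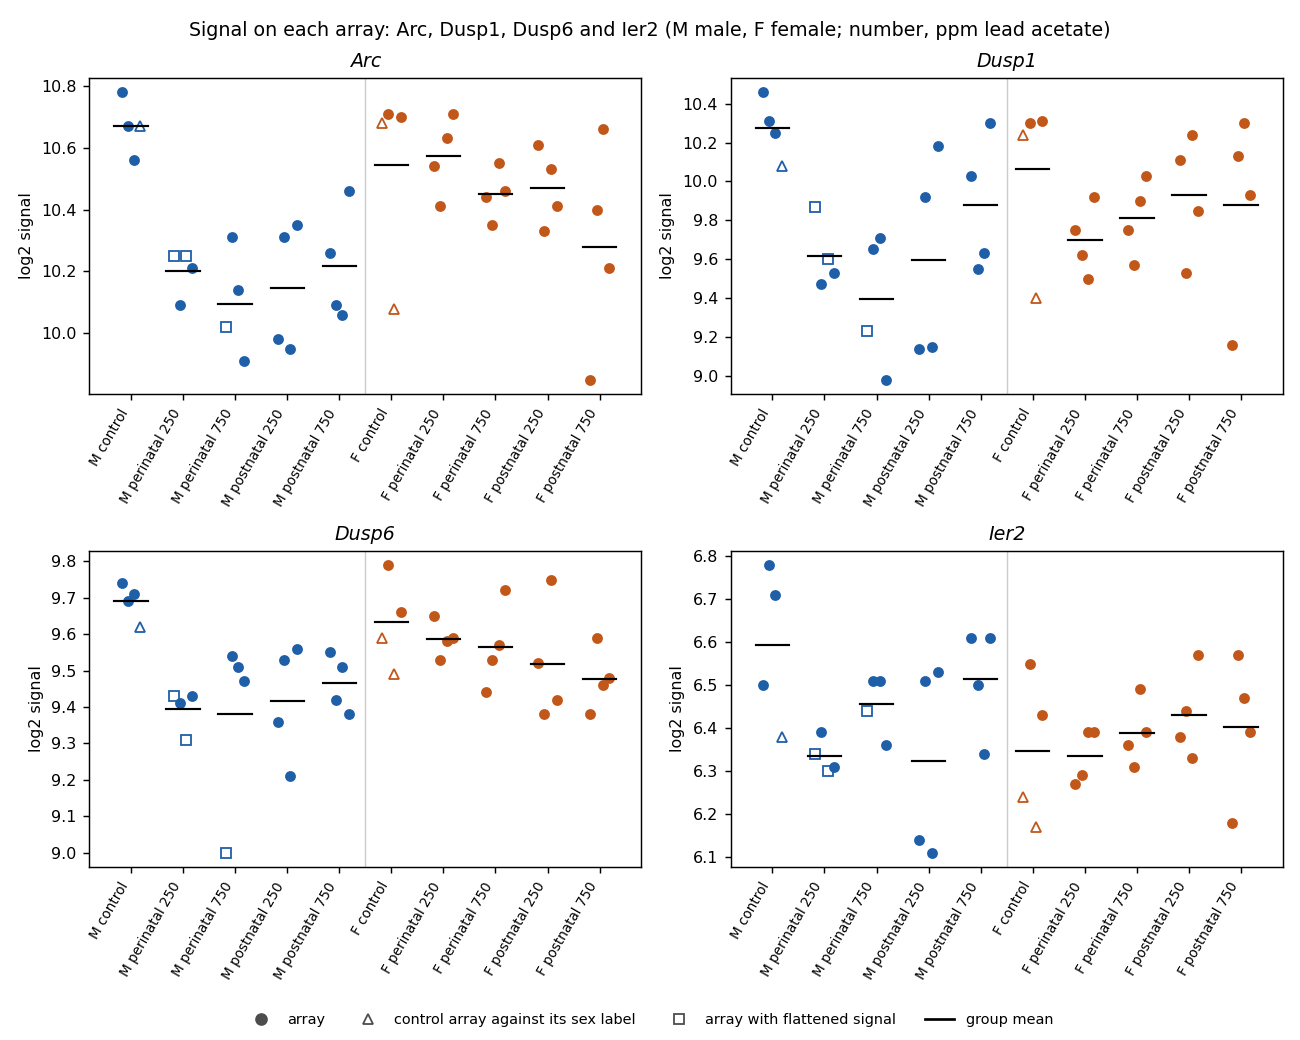
Log2 signal of Arc, Dusp1, Dusp6 and Ier2 on each of the 40 arrays by group (points, males blue and females orange; black bars, group means; open triangles, control arrays against their sex label; open squares, arrays of flattened signal). For Arc all exposed males (9.91 to 10.46) sit below the male controls (10.56 to 10.78), whereas exposed females (9.85 to 10.71) span the range of the female controls.

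The members that signal between cells had smaller differences in males. Nptx2 read 9.27, 9.00, 9.11 and 9.37 in male controls, and its difference in exposed males was 0.03 (SE 0.06). The 4 exposures gave -0.07, 0.05, 0.09 and 0.04. Ptgs2 read 9.49, 9.29, 9.27 and 9.48 in male controls, and its difference was -0.01 (SE 0.05), with -0.01, 0.00, 0.04 and -0.08 by exposure. Without the 3 controls against their sex label the averaged differences were 0.09 (SE 0.07) for Nptx2 and 0.02 (SE 0.06) for Ptgs2. For both genes each exposed male group overlapped its controls, and the limma adjusted p of the averaged difference was 1.

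Inhba lay between these patterns. Male controls read 7.84, 7.74, 7.75 and 7.77, and 12 of the 16 exposed males lay below the lowest of them. The difference was -0.10 (SE 0.06, limma adjusted p = 0.875; -0.10 also without the 3 controls against their sex label), and by exposure -0.10, -0.10, -0.13 and -0.08. At postnatal 250 ppm the Inhba signals of 7.64, 7.69, 7.57 and 7.69 did not overlap the controls.

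**Figure D2:**
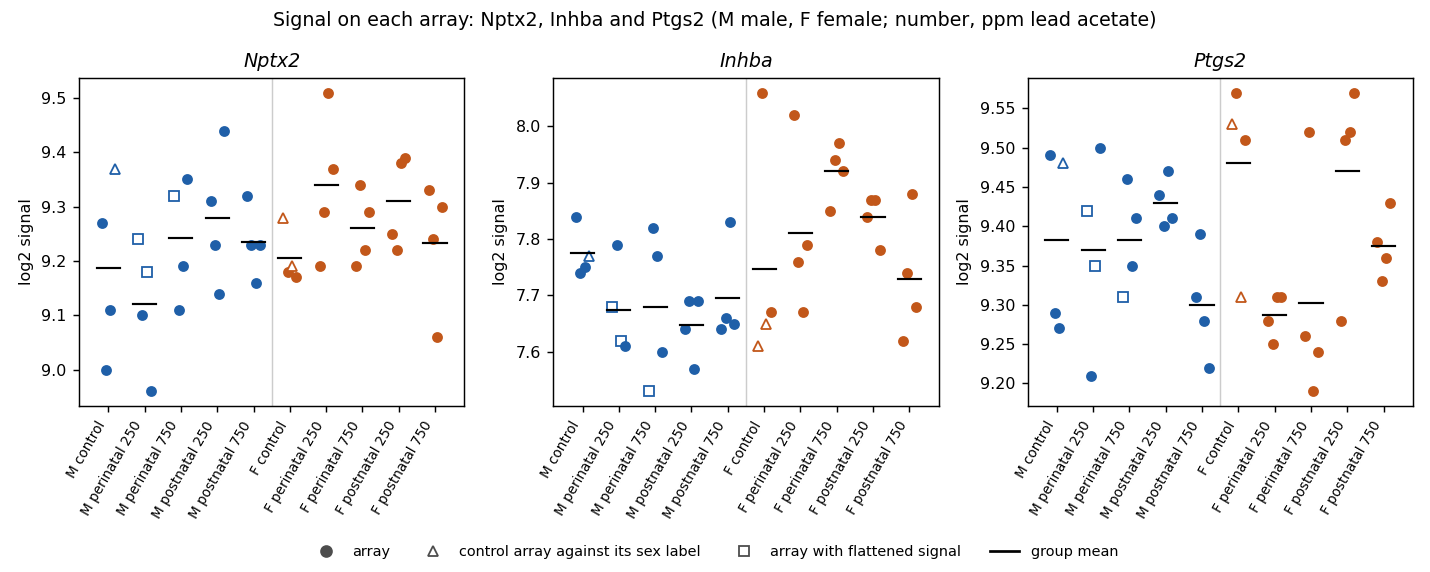
Log2 signal of Nptx2, Inhba and Ptgs2 on each of the 40 arrays by group, with the same symbols for arrays, doubted arrays and group means. Male controls and exposed males overlap for Nptx2 and Ptgs2, and for Inhba 12 of 16 exposed males lie below the lowest male control (7.74).

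Counted over the 7 genes, 1 passed in exposed males against 0.0445% of all probe sets (13 of 29214), and 6 of 7 differences were below 0 with a median of -0.19, where the median of all probe sets was 0. At an unadjusted limma p under 0.05, 4 of 7 were lower against 2.92% of all probe sets. In 2 of 7, Arc and Dusp6, the 16 exposed arrays lay wholly below the 4 controls, which held for 0.0445% of probe sets (13). Group by group, the count of genes wholly below the controls was 3 at perinatal 250 ppm (background 1.02%), 3 at perinatal 750 ppm (1.31%), 3 at postnatal 250 ppm (1.61%) and 2 at postnatal 750 ppm (2.71%). These 4 comparisons share the same 4 control arrays. Several of the 7 genes also varied together among arrays. They and the gene lists below were chosen with earlier results of these data known. The counts are therefore a description. Over both sexes and all 8 exposures, 0 of 56 differences passed (background 0.0539%), and 17 had an unadjusted limma p under 0.05 (background 6.13%). Of these 17, 16 were lower and 1 was higher, and the male groups held 4, 3, 4 and 2 of them in the order just given (backgrounds for lower, 2.77%, 3.06%, 3.04% and 5.51%).

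Cell type markers were read on the same arrays. The 8 pan-neuronal markers, 4 lower and 4 higher, had a median difference of 0 in exposed males, and their averaged signal lay between 11.69 and 11.75 in all 10 groups. Of the myelin markers all 8 measured were higher in exposed males, with a median of 0.23. Of the 8, Cldn11, a tight junction protein of myelin, passed (0.26, SE 0.05, limma adjusted p = 0.0402), against 0.0445% of all probe sets. Their averaged signal was 11.38 to 11.43 in male controls and 11.44 to 11.84 in exposed males. In exposed females the median was 0.17, again with 8 of 8 higher and 0 passing. Endothelial and mural markers were lower in 7 of 9 (median -0.08; 8.65 to 8.74 in male controls, 8.41 to 8.76 in exposed males), and red blood cell markers higher in 4 of 4 (median 0.21), with 0 passing. The averaged red blood cell signal was 8.73 in male controls and 9.33 in males at postnatal 750 ppm. It was 8.88 at perinatal 250 ppm, 8.86 at postnatal 250 ppm and 8.66 at perinatal 750 ppm. The medians were -0.07 for 6 CA pyramidal markers, -0.02 for 5 dentate markers, 0.01 for 8 interneuron markers, 0.05 for 7 astrocyte markers and 0.01 for 7 microglia markers. Choroid plexus markers (5, median -0.10) ranged from 6.57 to 11.11 among single male arrays, and meningeal (5) and thalamic or striatal (5) markers had medians of 0.05. The part of these markers in the result on Arc was not tested.

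In females none of the 7 genes passed in the average of the 4 exposures (background 0.024%, 7 probe sets). Ptgs2 alone, 1 of 7, was lower at an unadjusted limma p under 0.05 (background 1.23%). None lay wholly below the controls (background 0.0103%). Female controls read 10.68, 10.71, 10.08 and 10.70 for Arc. The 16 exposed females ran from 9.85 to 10.71 with a median of 10.45. Replicate 3 of the controls stood well below the other 3 and below most exposed females. The Arc difference was -0.10 (SE 0.10, limma adjusted p = 1), with 0.03, -0.09, -0.07 and -0.26 for perinatal 250, perinatal 750, postnatal 250 and postnatal 750 ppm. In the last of these groups the arrays read 9.85, 10.40, 10.66 and 10.21. The perinatal 750 ppm females, the 1 exposed group in the same range of title numbers as its controls, read 10.44, 10.35, 10.55 and 10.46 and overlapped them.

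The phosphatases were lower in exposed females by less than their spread. Dusp1 read 10.24, 10.30, 9.40 and 10.31 in female controls, with replicate 3 again far below the others, and differed by -0.23 (SE 0.18). Dusp6 read 9.59, 9.79, 9.49 and 9.66 and differed by -0.09 (SE 0.07). Replicate 3 was one of the control arrays whose Eif2s3 went against the label. Without the 3 such arrays the differences in exposed females were -0.26 (SE 0.12) for Arc, -0.47 (SE 0.23) for Dusp1 and -0.19 (SE 0.09) for Dusp6, with limma adjusted p = 0.999 for each. By exposure, in the order above, Arc was then at -0.13, -0.26, -0.24 and -0.43, and Dusp1 at -0.61, -0.49, -0.37 and -0.43. Only 2 female controls then remained.

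Among the other genes, only Ptgs2 had an averaged difference in females with an unadjusted limma p under 0.05 (0.03). Ptgs2, at 9.53, 9.57, 9.31 and 9.51 in female controls, had a difference of -0.12 (SE 0.05, limma adjusted p = 1), from -0.19 at perinatal 250 ppm and -0.18 at perinatal 750 ppm to -0.01 at postnatal 250 ppm and -0.11 at postnatal 750 ppm. The perinatal 250 ppm arrays read 9.28, 9.25, 9.31 and 9.31, and 2 of them lay below the lowest control (9.31). The perinatal 750 ppm arrays read 9.26, 9.52, 9.19 and 9.24, and 3 of them lay below that control (limma adjusted p = 0.633 for the difference). These perinatal 750 ppm females, also in the Inhba values that follow, shared a range of title numbers with their controls. Inhba read 7.61, 8.06, 7.65 and 7.67 in female controls and 7.85, 7.94, 7.97 and 7.92 after perinatal 750 ppm, a difference of 0.17 (limma adjusted p = 0.825). That value was 0.27 without female control replicate 2 and 0.05 without the 3 controls against their sex label. Ier2 (0.04, SE 0.08) and Nptx2 (0.08, SE 0.06) overlapped their controls in every exposed female group. Without the 3 controls against their sex label the averaged differences were -0.18 (SE 0.07) for Ptgs2, -0.04 (SE 0.08) for Inhba, -0.10 (SE 0.10) for Ier2 and 0.11 (SE 0.08) for Nptx2. In each of the 4 female exposures 0 of 7 genes lay wholly below the controls (backgrounds 1.23%, 1.42%, 0.928% and 0.897%).

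**Figure D3:**
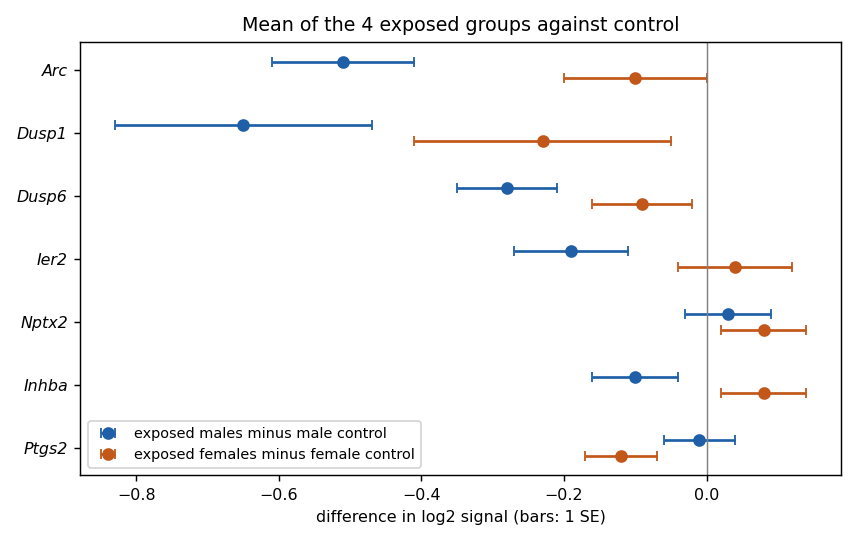
Difference in log2 signal between the mean of the 4 exposed groups and the control group of the same sex label, for 7 genes in males (blue) and females (orange); bars are 1 SE from the fit over all 40 arrays. In males Arc, Dusp1 and Dusp6 lie at -0.51, -0.65 and -0.28, and in females at -0.10, -0.23 and -0.09.

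Whether lead acted differently in the sexes was tested as the exposed-minus-control difference in females minus that in males. Averaged over the exposures it was 0.41 for Arc (SE 0.14, limma adjusted p = 1). For Ier2 it was 0.23 (SE 0.11), for Dusp1 0.42 (SE 0.26), and for Dusp6 and Inhba 0.18 each (SE 0.10 and 0.09). Nptx2 (0.05) and Ptgs2 (-0.11) had the smallest. Over this average and the 4 single exposures, 0 of 35 tests passed (background 0.00411%), and 7 had an unadjusted p under 0.05, all of them higher in females (background 3.98% in either direction). The sexes were thus not shown to differ in any of the 7 genes, although Arc passed in males alone. The contrast rests on both control groups, in which 3 arrays went against their sex label. Without these 3 the Arc difference was -0.26 in exposed females and -0.51 in exposed males. At perinatal 750 ppm the females shared a range of title numbers with their controls and the males did not. There the sex difference and number range cannot be told apart.

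**Figure D4:**
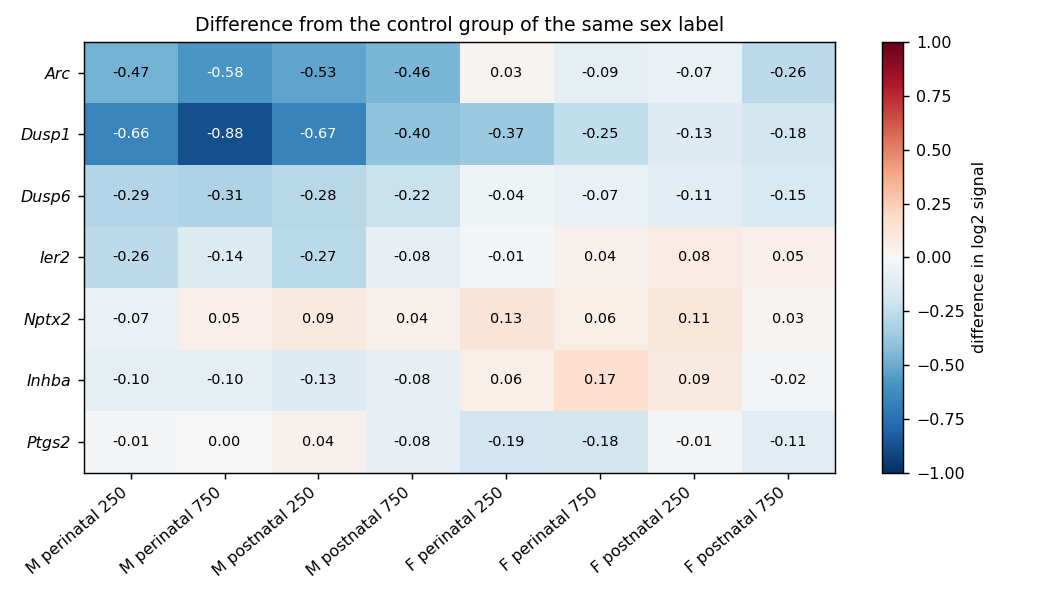
Difference in log2 signal from the control group of the same sex label for 7 genes (vertical) in each of the 8 exposed groups (horizontal; M male, F female, number in ppm), coloured from blue (lower) to red (higher). The male columns of Arc, Dusp1 and Dusp6 range from -0.22 to -0.88, and 0 of the 56 differences passed.

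Dose and window were compared within sex, between groups that need no control array. The postnatal dose contrasts lay within 1 range of title numbers, and the perinatal ones crossed ranges in both sexes, where dose and number range cannot be told apart. For 750 against 250 ppm, differences ran from -0.22 to 0.28 and 0 of 28 passed (background 0.0342% over the 4 contrasts), and also 0 had an unadjusted limma p under 0.05 (background 5.16%). Ptgs2 alone separated a pair of doses: postnatal 750 ppm males read 9.31, 9.39, 9.28 and 9.22, wholly below the postnatal 250 ppm males at 9.44, 9.40, 9.47 and 9.41. That difference was -0.13 (SE 0.07, limma adjusted p = 1), and 2.12% of probe sets were as cleanly lower in this comparison.

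For postnatal against perinatal exposure 0 of 28 passed (background 0.0608%) and 4 had an unadjusted limma p under 0.05 (background 9.2%). Dusp1 in males at 750 ppm was 0.48 higher after postnatal exposure (SE 0.23, limma adjusted p = 0.243). Ptgs2 in females at 250 ppm was 0.18 higher (limma adjusted p = 0.659). Nptx2 in males at 250 ppm was 0.15 higher, and Inhba in females at 750 ppm differed by -0.19 (limma adjusted p = 0.858). The 2 contrasts at 250 ppm lay within 1 range of title numbers. Those at 750 ppm crossed ranges, where window and number range cannot be told apart.

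Females and males were compared directly in controls and in the 3 exposures whose groups lay in 1 range of title numbers. Of 14 tests 0 passed (background 0.0308%), and 4 had an unadjusted limma p under 0.05 (background 4.97%). Among the 12 exposed arrays of each sex in that range, Arc ran from 9.85 to 10.71 in females, with a median of 10.47, and from 9.95 to 10.46 in males, with a median of 10.23. The female mean was higher by 0.25 (SE 0.07, limma adjusted p = 0.535), with overlap between the sexes. Inhba was 0.12 higher (SE 0.05, limma adjusted p = 0.811). In controls, by contrast, the differences were -0.13 for Arc, -0.21 for Dusp1 and -0.25 for Ier2 (SE 0.10, limma adjusted p = 0.994 for Ier2), and 3 of those 8 arrays went against their sex label.

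Ordered by group mean, the male controls came first for Arc (10.67, SD 0.09, n = 4), Dusp1 (10.27, SD 0.16), Dusp6 (9.69, SD 0.05) and Ier2 (6.59, SD 0.18). Males exposed perinatally to 750 ppm came last for Arc (10.09, SD 0.17), Dusp1 (9.39, SD 0.35) and Dusp6 (9.38, SD 0.25). Their last place for Dusp6 rested on replicate 1, an array of flattened signal at 9.00 (the others 9.47 to 9.54). By median, this group was the highest of the exposed males for Dusp6 (9.49, against 9.42, 9.44 and 9.47). It also had the highest range of title numbers, so exposure and number range cannot be told apart there. The order differed for the other 3 genes. Nptx2 was highest in females at perinatal 250 ppm (9.34, SD 0.13), Inhba in females at perinatal 750 ppm (7.92, SD 0.05) and Ptgs2 in female controls (9.48, SD 0.12). For all 7 genes each group overlapped the next one in the order, so neighbouring ranks do not differ beyond their spread.

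Among arrays of the same group, where the exposure does not differ, Arc and Dusp1 varied together. After the group means were subtracted, Pearson's r over 40 arrays was 0.90 and Spearman's rho 0.88 (2-sided permutation p = 1e-05, the smallest the permutations can give, and 2e-05; adjusted p = 0.00021 and 0.00042 over 21 pairs of genes). It was 0.86 without the 2 arrays farthest from the median. Those 2 arrays were labelled female: control replicate 3, whose Eif2s3 went against the label, and postnatal 750 ppm replicate 1. Both were low for either gene. The values of the pair come from the same array, so anything that differs between arrays is in both.

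The rest of the early group followed less closely. Dusp1 correlated with Ier2 at r = 0.65 (rho 0.58, permutation p = 0.00093 and 0.00264, adjusted p = 0.00651 and 0.0139) and with Dusp6 at r = 0.57 (rho 0.60, permutation p = 0.00201 and 0.00114, adjusted p = 0.0105 and 0.00798). Arc correlated with Ier2 at r = 0.59 (rho 0.55, permutation p = 0.00249 and 0.00426, adjusted p = 0.0105 and 0.0179) and with Dusp6 at r = 0.43 (rho 0.46, permutation p = 0.0141 and 0.0137, adjusted p = 0.0492 and 0.0411). Dusp6 also correlated with Inhba at r = 0.54 (rho 0.59, permutation p = 0.00021 and 0.00027, adjusted p = 0.0022 and 0.00283). Without the 2 arrays farthest from the median of the first gene named, these 5 values of r were 0.57, 0.54, 0.49, 0.37 and 0.52. For Dusp6 with Inhba the arrays left out were male perinatal 750 ppm replicate 1 and female postnatal 250 ppm replicate 3. Over all other genes the 99th percentile of r was 0.56 for Dusp6 and 0.63 for Inhba, both above the 0.54 of this pair. The 0.43 of Arc with Dusp6 was also below the 0.56 of Dusp6, though above the 0.35 of Arc. The 6 pairs above, of 21, passed by Pearson's r. By Spearman's rho Dusp1 and Inhba passed too (rho 0.47, permutation adjusted p = 0.0358, with r = 0.38). Without the 3 controls against their sex label, Arc and Dusp6 no longer passed by r (0.38, permutation adjusted p = 0.116). Nptx2 and Ptgs2 were in none of these pairs: with Arc and Dusp1 their r ran from -0.08 to 0.09.

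**Figure D5:**
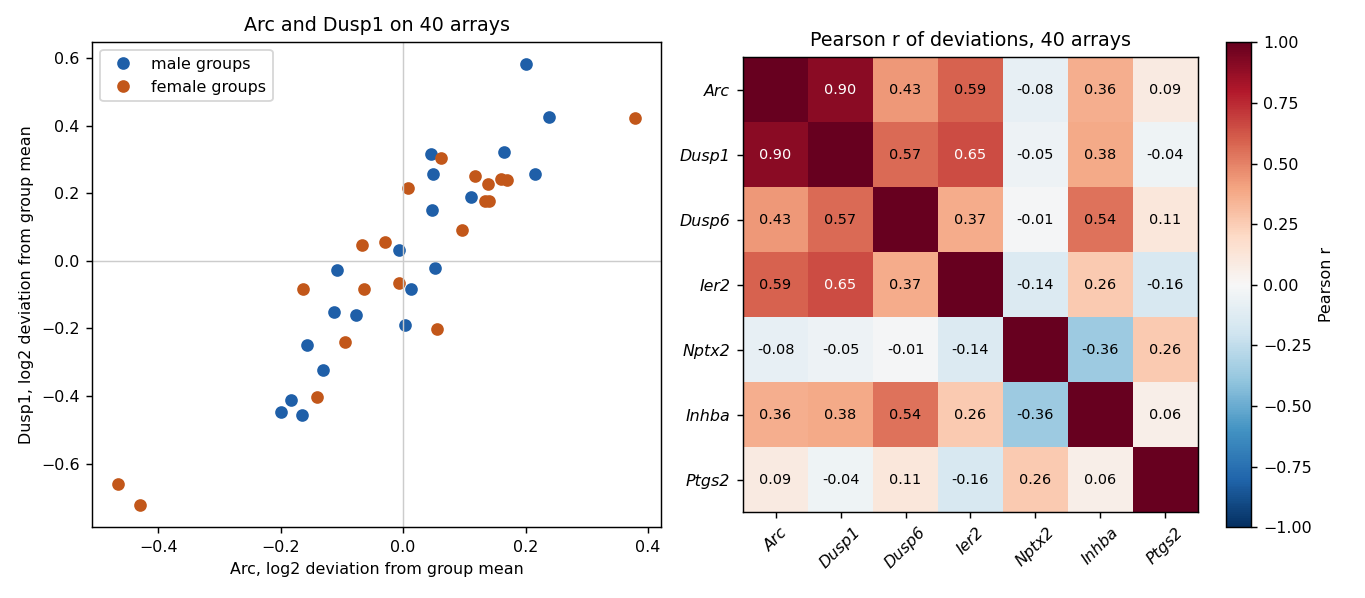
Left, deviation of Arc (horizontal) and Dusp1 (vertical) from the group mean in log2 units on each of 40 arrays, males blue and females orange; right, Pearson's r of such deviations for each pair of 7 genes. Arc and Dusp1 follow a line (r = 0.90), and Nptx2 and Ptgs2 show r near 0 with both.

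The genes whose pattern within groups was most like each member were taken from 14499 other genes over the same 40 arrays, as a description. For Arc they were the immediate early transcription factors Junb (r = 0.92, rho 0.89), Nr4a1 (0.92, 0.88) and Fos (0.85, 0.82), where the 99th percentile of r was 0.35. For Dusp1 they were Junb (0.89, 0.88), Fos (0.84, 0.79) and Apold1 (0.84, 0.86), an immediate early gene of endothelial cells. For Ier2 they included Npas4 (0.62, 0.56), a neuronal activity factor, and Fos (0.60, 0.51), beside the olfactory receptor Or4k36 (0.62, 0.59). The remaining members had none of these. Dusp6 was most like Smc2 (0.70, 0.65), Glra2 (0.70, 0.55) and Zbtb11 (0.68, 0.62), Nptx2 like Mrps24 (0.74, 0.72), Ninj1 (0.73, 0.73) and Thap7 (0.73, 0.77), Inhba like Hspa4 (0.79, 0.64), Tfcp2 (0.78, 0.77) and Rrp1 (0.77, 0.65), and Ptgs2 like Usp2 (0.61, 0.63), Plcd1 (0.61, 0.62) and Nbr1 (0.60, 0.64). For those 4 genes the 99th percentile of r was 0.56, 0.52, 0.63 and 0.41.

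Of the other genes of the pathway, the immediate early transcription factors lay lowest in exposed males. Of 20 measured, 19 were below controls and 0 passed, with 14 lower at an unadjusted limma p under 0.05 (background 2.92%). Their median was -0.23, from -0.87 for Npas4 (SE 0.33) to 0.03. Those of smallest p were Egr2 (-0.58, SE 0.12, limma adjusted p = 0.0679) and Nr4a1 (-0.59, SE 0.13, adjusted p = 0.0877), both activity-induced regulators of later genes. Junb was at -0.43 (SE 0.10) and Fos at -0.69 (SE 0.17). In exposed females 16 of 20 were below controls with a median of -0.08, 0 passed, and 1 was lower and 1 higher at an unadjusted p under 0.05 (backgrounds 1.23% lower and 2.95% higher). Egr2 was at -0.22 and Nr4a1 at -0.26 there.

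The other activity-induced genes, which include growth factors and later effectors, were closer to 0. In exposed males 14 of 18 were lower with a median of -0.06, led by the kinase Sik1 (-0.36, SE 0.10, limma adjusted p = 0.233) and Trib1 (-0.21, SE 0.09). Further dual specificity phosphatases were lower in 7 of 10 (median -0.04; Dusp8 -0.10 and Dusp16 -0.15). ERK feedback inhibitors and ETS factors were lower in 8 of 8 with a median of -0.05, with Spry4, an inhibitor of ERK signalling, at -0.17 (SE 0.05, limma adjusted p = 0.399) and Etv1 at -0.07. None of these genes passed.

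Partners and upstream genes showed medians near 0 in exposed males, and 0 of them passed. The AMPA receptor and pentraxin partners were lower in 4 of 12 (median 0.02; Nptxr, the pentraxin receptor, -0.09 and Gria2 0.05), and MAP kinases with the kinases upstream of them in 3 of 12 (median 0.03; Map2k4 0.06, Braf 0.03). Regulators of the CREB and SRF type were lower in 7 of 12 (median -0.01; Srf -0.08, Camk4 0.13). Genes of activin signalling, through which Inhba acts, were lower in 9 of 13 (median -0.01; the receptors Acvr1c -0.17 and Acvr1 -0.10). Genes of prostaglandin synthesis and reception, downstream of Ptgs2, were lower in 6 of 15 (median 0.02; the receptor Ptger2 0.17, the synthase Ptgis -0.14). Of 5 relatives of Btg2 and Ier2, 4 were lower (median -0.06; Btg1 -0.07, Tob2 0.10). In exposed females 0 genes of any of these lists passed, and the medians of these lists other than the transcription factors lay between -0.04 and 0.02.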

How the data were processed

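RNA (100 ng per sample) was hybridised to Affymetrix whole-transcript rat arrays. The deposited values were log2 signals, made by the authors with RMA and Partek per the submitters' processing notes, which give no version or setting; RMA corrects background, quantile-normalizes arrays and summarises probes, which narrows differences shared by whole arrays. No further normalization was applied. Groups came from the titles, and all samples entered each fit.

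A limma model (limma 3.58.1, R 4.3.3) with 1 mean for each of 10 groups was fitted to 29214 probe sets on 40 arrays, with a variance trend. Its 25 contrasts gave 2-sided p-values. These were adjusted over all probe sets of a contrast by the Benjamini-Hochberg method, and a gene passed under 0.05. The script was tested on simulated data. The number of arrays limits the precision. Of probe sets, 323 carried several symbols and 13581 none, and a gene with several probe sets was read from that of highest mean.

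Within-group correlations (100000 permutations within groups, Python 3.11.15) covered 21 pairs in place of 28 planned, since Btg2 had no probe set. Named genes were the members, for each pathway list those that passed or else the 2 of smallest p in exposed males, and the 3 genes most like each member. Npas4, Junb and Fos were named through the last of these. Members, lists, doubted arrays and alternatives (statmod 1.5.0 for array weights) were chosen with earlier results of these data known. Figures were drawn with matplotlib 3.10.9.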

Additional observations from a re-analysis of the deposited data

Results flagged for a closer look

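Of 70 sets of 4 arrays (7 genes in 10 groups), 6 (8.6%) held an array far from its other 3, with the gap above 0.829 of the whole range, where chance gives about 1 in 20. In female controls, replicate 3 was low for Arc at 10.08 (the others 10.68 to 10.71) and for Dusp1 at 9.40 (the others 10.24 to 10.31); it is 1 of the 3 control arrays whose Eif2s3 went against the label. In the same group, replicate 2 was high for Inhba at 8.06 (the others 7.61 to 7.67). For Dusp6, male perinatal 250 ppm replicate 3 read 9.31 (the others 9.41 to 9.43) and male perinatal 750 ppm replicate 1 read 9.00 (the others 9.47 to 9.54), both on arrays of flattened signal. Inhba in male postnatal 750 ppm replicate 3 was high at 7.83 (the others 7.64 to 7.66). What set these arrays apart was not tested.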

How the results depend on the processing

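The number of genes passing in exposed males, 1, was 0 without the 3 controls against their sex label, without the 3 flattened arrays, after a further quantile normalization, with array weights and without the variance trend. It was 2, Arc and Dusp6, with both control groups as 1 group of 8 (adjusted p = 0.00401 and 0.0268), where 84 of all probe sets passed in place of 13. Arc kept its direction throughout. Its difference ran from -0.51 to -0.44 over 9 settings and from -0.54 to -0.47 when each of 40 arrays was left out. Its adjusted p was 0.0604, 0.0561, 0.0555, 0.131 and 0.0665 in the 5 settings where the call was lost, over a range from 0.00401. Leaving out single arrays gave counts of 0 to 1 and lost the call in 11 of 40. Besides any 1 male control these were male perinatal 250 ppm replicate 2 (adjusted p = 0.0609), perinatal 750 ppm replicate 4 (0.0652), postnatal 250 ppm replicates 1 (0.0547) and 3 (0.0587), postnatal 750 ppm replicates 2 (0.0621) and 3 (0.06), and female postnatal 250 ppm replicate 4 (0.0513). In the 8 exposures the count of 0 became 1 with 8 pooled controls and 1 with only the compared groups fitted (313 and 42 calls over all probe sets in place of 126), and 0 to 1 when single arrays were left out: Arc in males at perinatal 750 ppm passed without female control replicate 3 (adjusted p = 0.0293) or female postnatal 750 ppm replicates 1 (0.0335) or 3 (0.0423). The cause was not tested.

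Reversals were small. Without the 3 controls against their label, Ptgs2 in exposed males became 0.02, and in exposed females Ier2 became -0.10, Inhba -0.04 and Arc at perinatal 250 ppm -0.13. With 8 pooled controls, Ier2 in exposed females became -0.08 and Arc at perinatal 250 ppm in females -0.03. Leaving out single arrays gave ranges across 0 for Nptx2 (-0.03 to 0.09) and Ptgs2 (-0.05 to 0.02) in exposed males, Ier2 in exposed females (-0.02 to 0.11), and, in females, Arc (-0.12 to 0.09) and Dusp6 (-0.09 to 0.01) at perinatal 250 ppm and Dusp1 at postnatal 250 ppm (-0.35 to 0.01) and 750 ppm (-0.40 to 0.06). Of 387 values for 43 gene results in other settings, 373 kept direction and side of the threshold, as did 1696 of 1720 with an array left out. No gene passed for dose, window, sex, the sex difference of the effect or exposed females in any setting run, and the correlated pairs numbered 5 to 9. No paired analysis was possible because the labels give no replicate numbers shared between groups.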
